A study of Mus musculus with 8 samples.

Results

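A set of 10 NF-κB pathway genes was followed in C2C12 myotubes: the subunit genes Rela, Relb, Nfkb1 and Nfkb2, the IκB family genes Nfkbia, Nfkbiz and Bcl3, the feedback inhibitor Tnfaip3, and the target genes Icam1 and Ier3. They were chosen by symbol, and a probe set counted when the array annotation gave it to 1 of these symbols alone. That left 9 of the 10 genes with 17 of the 45101 probe sets, and Nfkb1 is not analysed here. Each gene is led by its probe set with the highest mean log2 intensity over the 8 arrays, as for all 18193 genes, and the other probe sets are given beside it.

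C2C12 is an established mouse myoblast line that fuses into multinucleated myotubes when serum is lowered. Cultures held for 3 days in 2% dialyzed serum were infected with an adenovirus and RNA was taken 3 days later. The 4 groups of 2 arrays were GFP-PGC-1α+DFO (virus for a GFP fusion of PGC-1α, which coactivates genes of mitochondrial metabolism, with 100 µM of the iron chelator deferoxamine, DFO), GFP-PGC-1α (that virus without DFO), GFP+DFO (virus for GFP alone with DFO) and GFP (virus for GFP alone). Every group, GFP included, therefore carried adenovirus and GFP, no uninfected culture was included, and all cells came from a single line. Each pair of arrays is a biological duplicate, per the series' design text.

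NF-κB proteins are dimers of Rel family members that IκB proteins hold inactive in the cytoplasm. When the IκB kinase complex marks IκBα for degradation, RelA with p50 enters the nucleus (the canonical arm), whereas processing of the Nfkb2 product to p52 frees dimers with RelB (the noncanonical arm). Among the genes that RelA dimers switch on are those of IκBα and of the ubiquitin-editing enzyme A20, which end the signal, and many cytokines, chemokines and survival genes. In muscle the pathway is known for its part in inflammation and wasting.

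The labels were checked on the treated genes. Ppargc1a, which encodes PGC-1α, read 7930.3 and 7710.5 intensity units with GFP-PGC-1α+DFO and 7211 and 7036 with GFP-PGC-1α, against 26.6 and 88.1 with GFP+DFO and 28.6 and 37.3 with GFP. Car9, a hypoxia-inducible carbonic anhydrase, read 1057 and 1004.5 with GFP-PGC-1α+DFO and 1288 and 1239 with GFP+DFO, against 18.0 and 33.3 with GFP-PGC-1α and 49.2 and 37.0 with GFP. Array medians lay between 59.4 and 62.8, and across probe sets, as a description, duplicates had Pearson r of 0.942 to 0.962. The 5′ over 3′ ratio of the beta-actin probe sets, which drops in degraded RNA, was 0.753 and 0.811 with GFP-PGC-1α+DFO and 0.868 and 0.859 with GFP+DFO, against 0.897 to 0.921 on the 4 arrays without DFO. Poly-A spike-in probe sets averaged 7.60 and 7.47 on the log2 scale with GFP-PGC-1α+DFO, 7.95 and 7.82 with GFP-PGC-1α, 8.16 and 7.91 with GFP+DFO and 8.14 and 8.05 with GFP. The part of these differences in the results below was not tested, beyond the refit on spike-in scaling.

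With GFP-PGC-1α+DFO against GFP, 5 of the 9 measured genes rose and 0 fell by limma at an adjusted p of 0.05: Ier3, Nfkbiz, Nfkbia, Tnfaip3 and Nfkb2. Among all genes 13.5% were called higher and 18.3% lower in that comparison. The median log2 change of the 9 genes was 1.17, against -0.01 over all genes. Rela, Relb, Bcl3 and Icam1 did not pass. The 5 genes divide by what DFO alone did: Ier3, Nfkbiz, Tnfaip3 and Nfkbia also rose with GFP+DFO against GFP, whereas Nfkb2 had a log2 change of -0.05 there (adjusted p = 0.887). In bulk RNA, less RNA per cell and fewer cells of a type cannot be told apart.

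**Figure D1:**
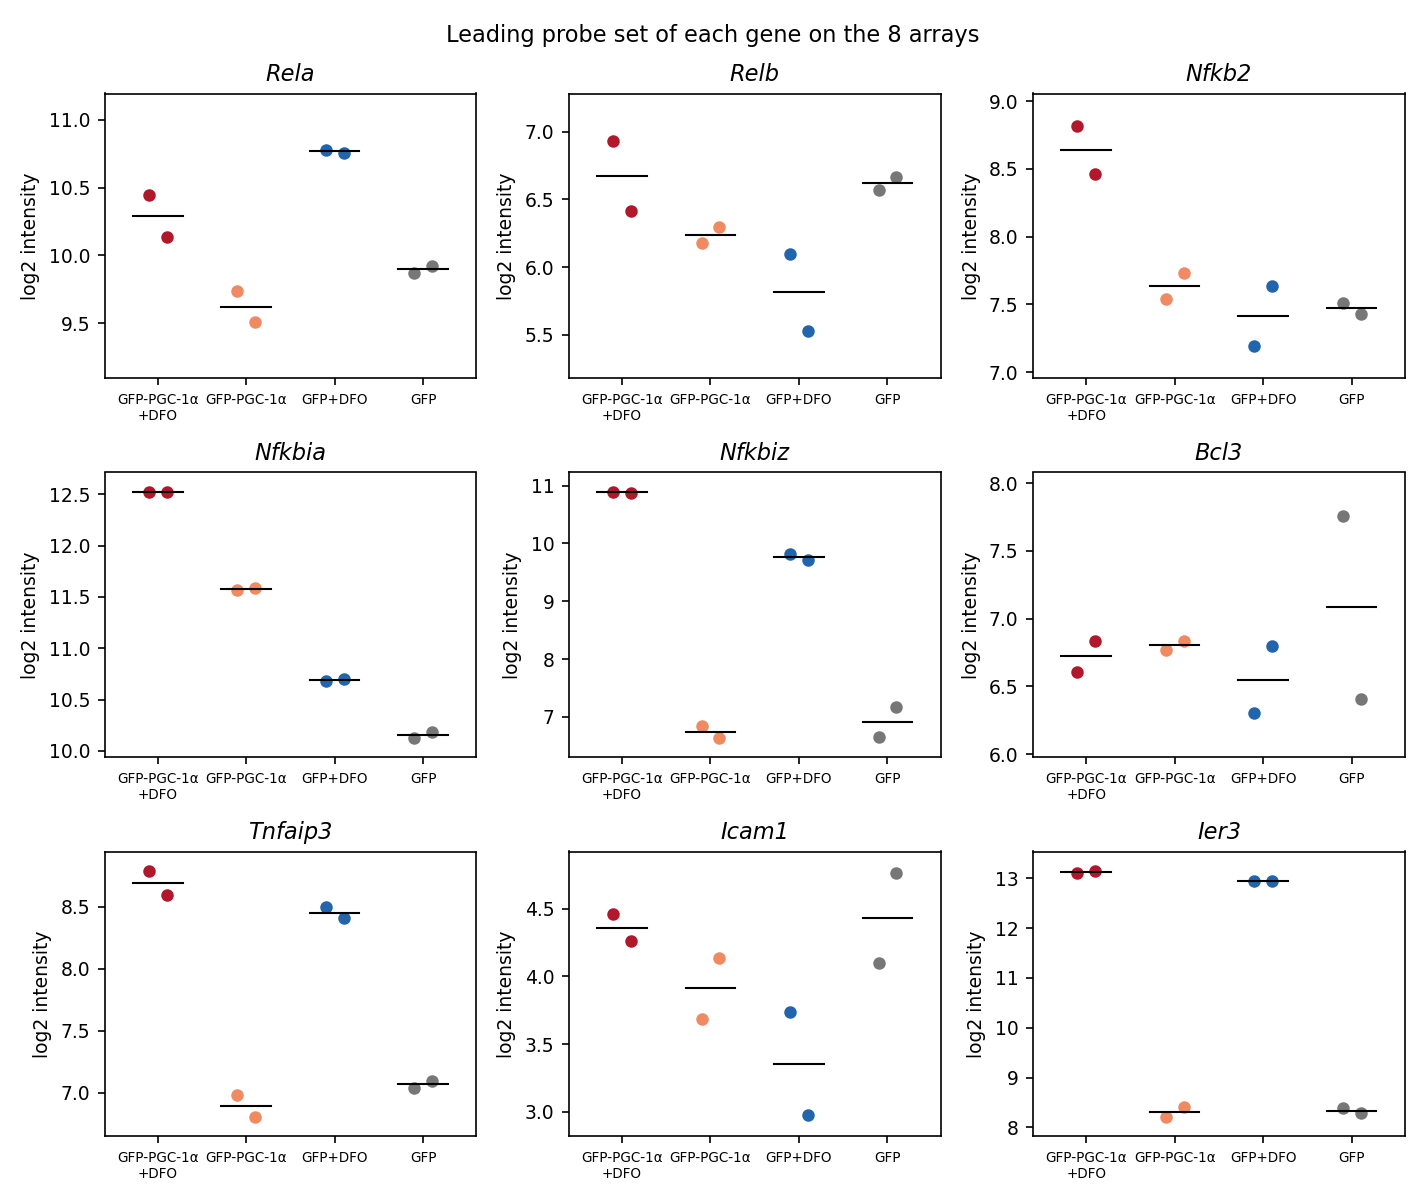
Log2 intensity (vertical axis) of the leading probe set of each of the 9 measured genes in the 4 groups (horizontal axis). Points are arrays, 2 a group, bars are group means, and each panel has its own axis range. Ier3, Nfkbiz and Tnfaip3 are high on the 4 arrays with DFO, Nfkb2 is high on the 2 arrays of GFP-PGC-1α+DFO only, and Bcl3 has 1 GFP array at 215.8 and the other at 85.0 intensity units.

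Among the subunits, Rela encodes RelA (p65), the transactivating subunit of the canonical dimer. Its probe set read 1395 and 1125 with GFP-PGC-1α+DFO, 852 and 728 with GFP-PGC-1α, 1758 and 1727.5 with GFP+DFO and 937 and 971.5 with GFP. The GFP+DFO arrays were the highest, and no pair of groups overlapped. Rela rose with GFP+DFO against GFP (log2 change 0.87 ± 0.14, SE; limma adjusted p = 0.0101) and with GFP-PGC-1α+DFO against GFP-PGC-1α (0.67 ± 0.14, adjusted p = 0.0226). Both calls depend on single arrays: adjusted p was 0.0573 in GFP+DFO against GFP without GFP replicate 1, 0.0672 without GFP+DFO replicate 1 and 0.0639 without GFP+DFO replicate 2. In GFP-PGC-1α+DFO against GFP-PGC-1α it was 0.0516 and 0.0984 without GFP-PGC-1α replicates 1 and 2, 0.059 without GFP-PGC-1α+DFO replicate 1 and 0.0562 without either GFP+DFO array. Against GFP, GFP-PGC-1α+DFO gave 0.39 ± 0.14 (adjusted p = 0.0928), a value that passed on spike-in scaling (0.96, adjusted p = 0.00592) and without GFP-PGC-1α+DFO replicate 2 (0.55, adjusted p = 0.0452). Against GFP+DFO it gave -0.48 ± 0.14 (adjusted p = 0.0754) as deposited and up to 0.14 on spike-in scaling, so its sign there depends on the scaling.

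Nfkb2 encodes p100, an inhibitory protein that is cut to the p52 subunit. Its leading probe set read 450.8 and 353 with GFP-PGC-1α+DFO, against 186 and 213 with GFP-PGC-1α, 147 and 199 with GFP+DFO and 182 and 172 with GFP. The combined arrays lay above the other 6, which ran from 147 to 213. The rise was 2.25-fold against GFP (log2 change 1.17 ± 0.20, adjusted p = 0.00898), 1.22 ± 0.20 against GFP+DFO (adjusted p = 0.0147) and 1.00 ± 0.20 against GFP-PGC-1α (adjusted p = 0.019). Neither single treatment passed against GFP (GFP-PGC-1α 0.17 ± 0.20, adjusted p = 0.648). The other Nfkb2 probe set, whose _x_at ending marks probes that may bind other transcripts, read 196 and 152 with GFP-PGC-1α+DFO against 159 and 176 with GFP, a log2 change of 0.05 ± 0.16. The mean over both probe sets gave 0.61 against GFP (adjusted p = 0.0502), 0.66 against GFP+DFO (adjusted p = 0.0629) and 0.51 against GFP-PGC-1α (adjusted p = 0.0962), so all 3 calls rest on the leading probe set. The call against GFP+DFO was also lost without GFP+DFO replicate 1 (adjusted p = 0.0752). The call against GFP-PGC-1α was lost without GFP-PGC-1α replicate 1 (adjusted p = 0.0974), without replicate 2 (adjusted p = 0.058) and without GFP-PGC-1α+DFO replicate 1 (adjusted p = 0.071).

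Relb encodes the noncanonical partner of p52. It read 122 and 85.3 with GFP-PGC-1α+DFO, 72.6 and 78.6 with GFP-PGC-1α, 68.4 and 46.2 with GFP+DFO and 95.1 and 102 with GFP. The GFP arrays lay inside the range of GFP-PGC-1α+DFO, and the GFP+DFO arrays were the lowest. No comparison passed: the log2 change was 0.05 ± 0.25 with GFP-PGC-1α+DFO against GFP (adjusted p = 0.906; 95% interval -0.58 to 0.69), 0.86 ± 0.25 against GFP+DFO (adjusted p = 0.074) and -0.81 ± 0.25 with GFP+DFO against GFP (adjusted p = 0.0761). On spike-in scaling the value against GFP+DFO was 1.36 (adjusted p = 0.0119).

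Among the IκB genes, Nfkbia encodes IκBα, the inhibitor of RelA dimers, which induce it in turn. Its leading probe set read 5899 and 5874 with GFP-PGC-1α+DFO, 3037 and 3075 with GFP-PGC-1α, 1639 and 1661 with GFP+DFO and 1117 and 1165 with GFP, so the 4 groups stood in that order with no overlap. The rise with GFP-PGC-1α+DFO was 5.16-fold against GFP (log2 change 2.37 ± 0.08, adjusted p = 6.43e-05). It was 1.83 ± 0.08 against GFP+DFO (adjusted p = 0.000756) and 0.95 ± 0.08 against GFP-PGC-1α (adjusted p = 0.00102).

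The probe sets of Nfkbia disagree about PGC-1α alone. GFP-PGC-1α against GFP gave 1.42 ± 0.08 on the leading probe set (adjusted p = 0.00205). The next 3, in order of brightness, gave 0.16 ± 0.12, 0.36 ± 0.12 and 0.17 ± 0.15, and the dimmest gave -0.22 ± 0.14. The second read 4308 and 3742 with GFP-PGC-1α+DFO, against 714 and 707 with GFP-PGC-1α, 1371 and 1391 with GFP+DFO and 653 and 623 with GFP. On it and on the next 2, GFP+DFO lay above GFP-PGC-1α, the opposite of the order on the leading probe set. With the mean of the 5 probe sets the change with GFP-PGC-1α against GFP was 0.38 (adjusted p = 0.0908). In a fit of only those 2 groups the leading probe set had adjusted p = 0.0667. That fit cannot decide, since 0 of all genes passed in it, Ppargc1a included.

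With GFP-PGC-1α+DFO against GFP the same 3 probe sets gave 2.65 ± 0.12, 2.85 ± 0.12 and 2.81 ± 0.15, each more than the leading one, and the dimmest gave 0.16 ± 0.14. Against GFP-PGC-1α they gave 2.50 ± 0.12, 2.49 ± 0.12 and 2.64 ± 0.15, far above the 0.95 of the leading probe set, and the dimmest gave 0.37 ± 0.14. Against GFP+DFO they gave 1.54 ± 0.12, 1.67 ± 0.12 and 1.87 ± 0.15, and the dimmest 0.22 ± 0.14. In the combined group 4 of the 5 probe sets of Nfkbia thus gave a log2 change above 2 against GFP. With GFP+DFO against GFP the leading probe set gave 0.53 ± 0.08 (adjusted p = 0.00682), and the 3 others gave 1.11 ± 0.12, 1.18 ± 0.12 and 0.94 ± 0.15. The call on the leading one was lost on spike-in scaling (0.60, adjusted p = 0.056) and without either GFP+DFO array (adjusted p = 0.0537 without replicate 1 and 0.0596 without replicate 2).

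**Figure D2:**
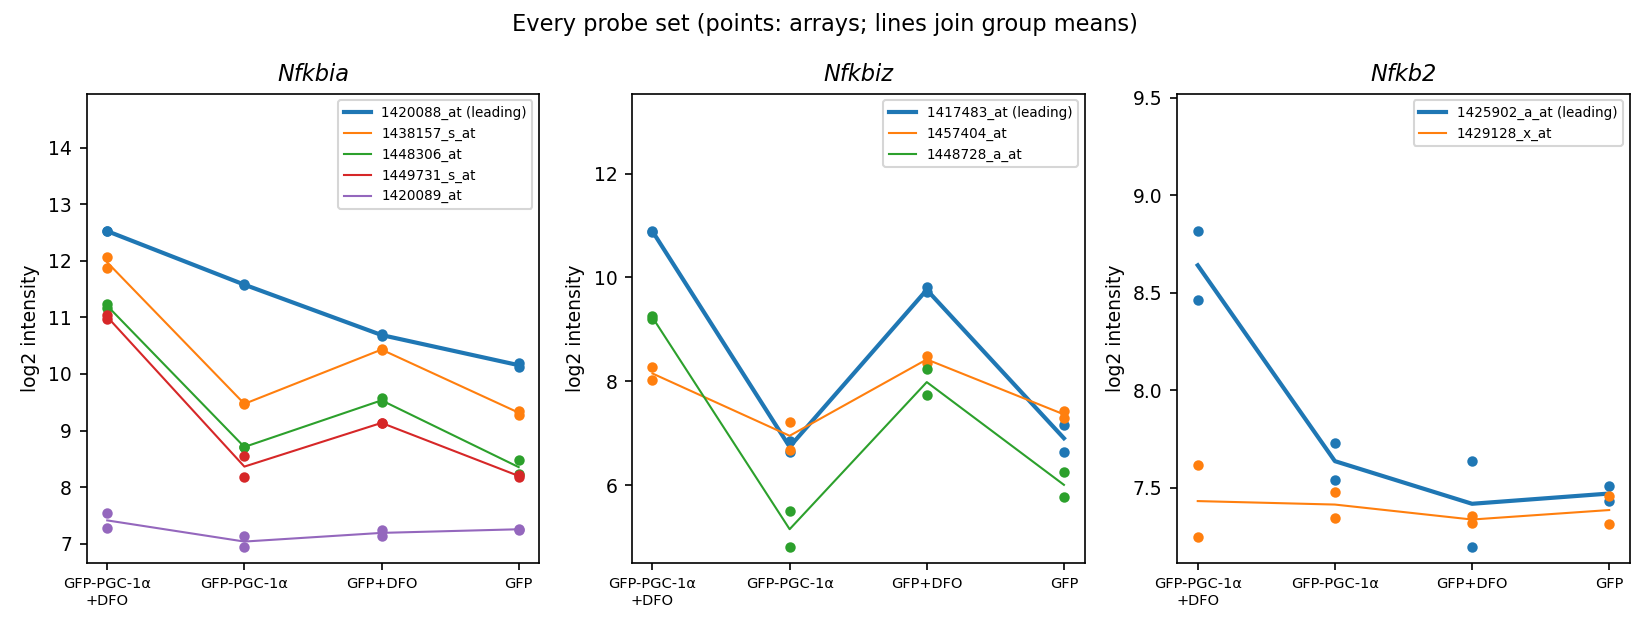
Log2 intensity (vertical axis) of every probe set of Nfkbia, Nfkbiz and Nfkb2 in the 4 groups (horizontal axis). Points are arrays, and lines join group means only to guide the eye. The leading probe set of Nfkbia is the only one of its 5 on which GFP-PGC-1α lies above GFP+DFO, and the second Nfkb2 probe set stays between 152 and 196 intensity units.

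Nfkbiz encodes IκBζ, a nuclear IκB protein that RelA dimers induce and that helps switch on a second set of targets such as Il6 and Lcn2. It read 1905 and 1884 with GFP-PGC-1α+DFO and 899 and 839.96 with GFP+DFO, against 115 and 99.4 with GFP-PGC-1α and 100.03 and 144 with GFP. All 4 DFO arrays lay far above the other 4, and the combined arrays lay above GFP+DFO. The change with GFP-PGC-1α+DFO was 15.8-fold against GFP (log2 change 3.98 ± 0.19, adjusted p = 0.000162) and 4.15 ± 0.19 against GFP-PGC-1α (adjusted p = 0.000224). GFP+DFO gave 2.86 ± 0.19 against GFP (adjusted p = 0.000703) and GFP-PGC-1α gave -0.16 ± 0.19 (adjusted p = 0.635).

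The size of that rise depends on the probe set. Against GFP a second Nfkbiz probe set gave 3.22 ± 0.32 (adjusted p = 0.00261) and the third 0.79 ± 0.21, which did not pass (adjusted p = 0.0568). Against GFP-PGC-1α they gave 4.08 ± 0.32 and 1.20 ± 0.21. The mean of the 3 gave 2.66 against GFP and 3.14 against GFP-PGC-1α, and both passed.

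The step of Nfkbiz beyond DFO alone is less firm. GFP-PGC-1α+DFO against GFP+DFO gave 1.12 ± 0.19 (adjusted p = 0.0166), but that call was lost when any 1 of those 4 arrays was left out (adjusted p = 0.0551 and 0.0697 without GFP-PGC-1α+DFO replicates 1 and 2, 0.0903 and 0.0975 without GFP+DFO replicates 1 and 2). The second probe set read 592 and 610 with GFP-PGC-1α+DFO against 302 and 213 with GFP+DFO (1.24 ± 0.32). The third went the other way, with 262 and 309 against 361 and 326 (-0.27 ± 0.21), and the mean of the 3 gave 0.70 (adjusted p = 0.0574).

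Bcl3 encodes a nuclear IκB protein that binds p50 and p52 dimers. It read 97.6 and 114 with GFP-PGC-1α+DFO, 109 and 114 with GFP-PGC-1α, 78.9 and 111 with GFP+DFO and 215.8 and 85.0 with GFP. The spread between the GFP arrays was larger than any difference between groups. The log2 change with GFP-PGC-1α+DFO against GFP was -0.36 ± 0.45 (adjusted p = 0.61; 95% interval -1.50 to 0.78). Without GFP replicate 2 it was -1.03, and GFP+DFO against GFP was then -1.20. Without GFP replicate 1, the array at 215.8, the 2 values were 0.31 and 0.14, so their sign rests on that array.

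Tnfaip3 encodes A20, which edits ubiquitin chains and shuts off the IκB kinase complex. It read 443 and 387 with GFP-PGC-1α+DFO and 361 and 339 with GFP+DFO, against 126 and 112 with GFP-PGC-1α and 131 and 137 with GFP. The DFO arrays lay above the others, and the 2 DFO groups lay close together without overlap. The change was 3.09-fold with GFP-PGC-1α+DFO against GFP (log2 change 1.63 ± 0.11, adjusted p = 0.000462) and 1.38 ± 0.11 with GFP+DFO against GFP (adjusted p = 0.00125). GFP-PGC-1α+DFO against GFP+DFO gave 0.24 ± 0.11 (adjusted p = 0.22; 95% interval -0.05 to 0.53) as deposited and 0.75 on spike-in scaling (adjusted p = 0.0188). A second, dimmer probe set gave 0.97 ± 0.21 with GFP-PGC-1α+DFO and 0.86 ± 0.21 with GFP+DFO against GFP.

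Among the targets, Ier3, an early response gene that affects survival under stress, gave the largest change of the 9 genes. It read 8898 and 9139.8 with GFP-PGC-1α+DFO and 7924 and 7921 with GFP+DFO, against 296 and 341 with GFP-PGC-1α and 335 and 311 with GFP. The 4 DFO arrays stood apart from the other 4, among which the groups overlapped. The change with GFP-PGC-1α+DFO was 27.9-fold against GFP (log2 change 4.80 ± 0.10, adjusted p = 3.72e-05), and GFP+DFO gave 24.5-fold (4.62 ± 0.10, adjusted p = 0.00011). GFP-PGC-1α+DFO against GFP+DFO gave 0.19 ± 0.10 (adjusted p = 0.291; 95% interval -0.07 to 0.45) as deposited and 0.69 on spike-in scaling (adjusted p = 0.0462). The 3 genes above the median level whose pattern over the 8 arrays was most like that of Ier3 were Anxa5 (Pearson r = 0.9996), Hmga2-ps1 (r = 0.9994) and Tusc3 (r = 0.999). That likeness is set by the split between the arrays with and without DFO. For Nfkb2, whose combined arrays stood apart, they were Ccdc12 (r = 0.967), Cdv3 (r = 0.966) and Bag6 (r = 0.966).

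Icam1 encodes an adhesion molecule for leukocytes and is a widely used readout of RelA activity in endothelium. Here it was near the bottom of the scale, at a mean percentile of 13.9 among genes. It read 22.1 and 19.1 with GFP-PGC-1α+DFO, 12.9 and 17.6 with GFP-PGC-1α, 13.3 and 7.88 with GFP+DFO and 17.2 and 27.2 with GFP. The combined arrays lay inside the range of GFP, with a log2 change of -0.07 ± 0.35 (adjusted p = 0.908; 95% interval -0.96 to 0.82), so a change of nearly 2-fold either way lies inside the interval at this signal. GFP+DFO had the lowest mean (-1.08 ± 0.35 against GFP, adjusted p = 0.0873), a value that ranged over -1.46 to -0.27 under the alternatives. GFP-PGC-1α+DFO against GFP+DFO gave 1.00 ± 0.35 (adjusted p = 0.117), or 1.51 on spike-in scaling (adjusted p = 0.0347). Under the alternatives it ranged over 0.03 to 1.62, so its size at this dim signal depends on the processing.

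**Figure D3:**
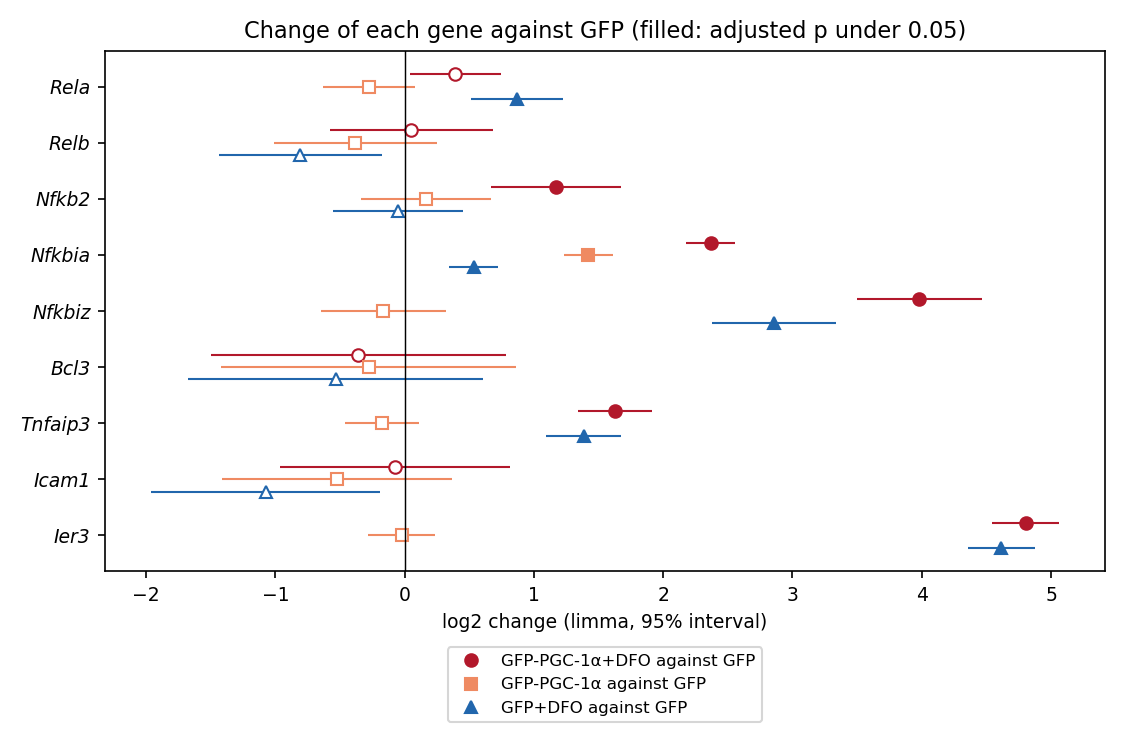
Log2 change against GFP (horizontal axis) with its 95% interval for the 9 measured genes in 3 comparisons, filled where the limma adjusted p was under 0.05. Nfkb2 is filled for GFP-PGC-1α+DFO alone, Rela for GFP+DFO alone, and Nfkbia is filled in all 3, its value of 1.42 with GFP-PGC-1α resting on the leading probe set.

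Counted by comparison, GFP-PGC-1α against GFP called 1 of the 9 genes higher, Nfkbia on its leading probe set, and 0 lower, where 4.96% of all genes were called higher and 4.77% lower. GFP+DFO against GFP called 5 higher (Ier3, Nfkbiz, Tnfaip3, Rela and Nfkbia) and 0 lower, where the shares of all genes were 11.8% and 12.5%. That count was lower without either GFP+DFO array, where Rela gave 0.86 and 0.88 and Nfkbia 0.54 and 0.52 (without replicates 1 and 2). The comparisons against GFP share its 2 arrays, and the median log2 changes of the 9 genes were 1.17 with GFP-PGC-1α+DFO, -0.17 with GFP-PGC-1α and 0.53 with GFP+DFO.

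Against the single treatments, GFP-PGC-1α+DFO called 3 of the 9 genes higher than GFP+DFO (Nfkbia, Nfkb2 and Nfkbiz) and 0 lower, where 6.93% of all genes were called higher and 12% lower. The count was 1 with the mean of the probe sets and 7 on spike-in scaling, where 2213 and 3410 of all genes passed, against 3446 in the main fit. On spike-in scaling the median of all genes in this comparison was 0.45, against -0.05 as deposited. The count was also lower without GFP+DFO replicate 1, where Nfkb2 gave 1.00 and Nfkbiz 1.17. Against GFP-PGC-1α, GFP-PGC-1α+DFO called 6 higher (Ier3, Nfkbiz, Tnfaip3, Nfkb2, Nfkbia and Rela) and 0 lower, where the shares were 11.4% and 14.2%.

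Whether DFO acted differently in the presence of the construct was asked by the interaction, the log2 change with DFO in GFP-PGC-1α cells minus that in GFP cells. Of the 9 genes 0 passed in either direction by limma, as against 0.231% of all genes called higher and 0.324% lower (42 and 59 genes), and 6 had an unadjusted p under 0.05, as had 3165 of all 18193 genes. Nfkbiz had the lowest adjusted p (1.29 ± 0.27, adjusted p = 0.115), and Nfkb2 gave 1.06 ± 0.28 (adjusted p = 0.163). The leading probe set of Nfkbia gave 0.41 ± 0.11 (adjusted p = 0.159). Its next 3 probe sets gave 1.38 ± 0.16, 1.31 ± 0.18 and 1.71 ± 0.21, which did not pass either (adjusted p = 0.12, 0.129 and 0.12). Ier3 gave 0.21 ± 0.15 and Rela -0.20 ± 0.20. With limma's trend and robust options 3 genes passed (Nfkbiz, Nfkb2 and Nfkbia), where 1467 of all genes passed, against 101 in the main fit. Among genes above the median level the same 3 passed, of 6 of the set, where 1316 genes passed in all.

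The starts of the genes were then read for κB sites, the DNA elements that NF-κB dimers bind. Promoters of 250 bases before the start, from the RefSeq table on GRCm38.p6, matched 7 of the 10 genes with 10 windows, and Relb, Nfkb1 and Nfkbiz were not matched. Both strands were searched for the kappaB consensus GGGRNNYYCC (R is A or G, Y is C or T, N is any base). Looser forms were not searched. Overlapping matches of the strands count separately. It was found in 4 genes: Nfkb2 (all 3 windows), Nfkbia, Tnfaip3 (1 of 2 windows) and Ier3, and not in the windows of Rela, Bcl3 and Icam1, where 7.25% of 32851 RefSeq windows of that length held it. The 4 genes with a match are all among the 5 that rose with GFP-PGC-1α+DFO against GFP, and the fifth, Nfkbiz, had no window. The genes were chosen as NF-κB genes, Nfkb2 had 3 windows, and the 7.25% is a share of windows, not of genes. Whether matches and rises are linked was not tested and cannot be read from 7 genes. The windows are printed 5′ to 3′ on the gene's strand with the matched bases in capitals, to show the called genes beside Icam1, which was not called. The Icam1 window holds TGGAAATTCC, which departs from the consensus at its first base only. Its lack of a match therefore depends on the pattern and does not show that a κB site is absent. Nfkb2 is at chr19:46304487-46304736 (plus strand), Nfkbia at chr12:55492648-55492897 (minus strand), Tnfaip3 at chr10:19015411-19015660 (minus strand), Ier3 at chr17:35821463-35821712 (plus strand) and Icam1 at chr9:21015690-21015939 (plus strand).
Nfkb2: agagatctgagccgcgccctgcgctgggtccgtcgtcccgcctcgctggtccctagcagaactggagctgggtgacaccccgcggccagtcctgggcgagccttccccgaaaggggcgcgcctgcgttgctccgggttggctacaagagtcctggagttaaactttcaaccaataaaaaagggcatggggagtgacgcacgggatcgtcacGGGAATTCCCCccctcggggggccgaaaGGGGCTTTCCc
Nfkbia: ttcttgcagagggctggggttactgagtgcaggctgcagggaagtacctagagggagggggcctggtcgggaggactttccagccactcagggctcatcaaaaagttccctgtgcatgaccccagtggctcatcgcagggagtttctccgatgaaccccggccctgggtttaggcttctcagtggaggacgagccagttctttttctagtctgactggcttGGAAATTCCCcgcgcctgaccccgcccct
Tnfaip3: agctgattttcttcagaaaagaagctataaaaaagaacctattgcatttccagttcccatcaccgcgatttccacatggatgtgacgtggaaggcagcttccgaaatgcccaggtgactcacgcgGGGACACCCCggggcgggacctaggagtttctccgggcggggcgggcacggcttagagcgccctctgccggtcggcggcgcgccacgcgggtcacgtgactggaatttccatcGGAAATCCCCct
Ier3: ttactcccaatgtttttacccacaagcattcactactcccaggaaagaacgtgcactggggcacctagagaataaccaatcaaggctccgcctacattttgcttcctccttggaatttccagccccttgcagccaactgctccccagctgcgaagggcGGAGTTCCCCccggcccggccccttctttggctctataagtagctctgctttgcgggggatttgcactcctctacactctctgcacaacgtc
Icam1: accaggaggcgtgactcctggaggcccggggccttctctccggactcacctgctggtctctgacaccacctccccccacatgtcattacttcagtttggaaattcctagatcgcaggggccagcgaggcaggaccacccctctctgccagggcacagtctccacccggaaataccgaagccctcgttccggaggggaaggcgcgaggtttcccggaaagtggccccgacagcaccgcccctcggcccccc

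The Nfkbia match lay 29 to 20 bases before the start and that of Ier3 92 to 83 bases before it. The Nfkb2 window held matches at 39 to 29 and at 11 to 2 bases before the start, and the Tnfaip3 window at 125 to 116 and at 12 to 3. The core of the hypoxia response element, ACGTG or GCGTG on either strand, was in windows of 4 of the genes (Nfkb2, Tnfaip3, Icam1 and Ier3), where 38.6% of all windows held it. A match is a description of the letters, and binding was not measured.

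The other genes of the pathway were taken from lists. Of 5 further Rel and IκB genes, 1 rose with GFP-PGC-1α+DFO against GFP, the dim Nfkbid (24.6 and 28.5 against 6.72 and 8.59; log2 change 1.80 ± 0.36, adjusted p = 0.0158), a nuclear IκB gene. That call was lost without GFP replicate 1 (adjusted p = 0.0818) and without either GFP-PGC-1α+DFO array (0.0538 and 0.0762). Of 20 measured kinase and scaffold genes 3 rose and 4 fell, numbers near the shares of all genes called (13.5% higher and 18.3% lower): Ikbke, an IκB kinase relative, by 1.59 ± 0.26 (adjusted p = 0.00763), and Tradd (0.40) and Tab3 (0.38), against falls of Ikbkb, the catalytic IKKβ (-1.03 ± 0.16, adjusted p = 0.00634), Birc2 (-0.80), Tbk1 (-0.68) and Ikbkg (-0.41). Tradd, Tab3, Tbk1 and Ikbkg were named after their values were seen. Leaving out GFP replicate 1 or GFP replicate 2 ended the calls of Birc2 (adjusted p = 0.064 and 0.0907), Tradd (0.076 and 0.0614), Tab3 (0.105 and 0.1002) and Ikbkg (0.115 and 0.1495), and other arrays did so for Tradd (GFP-PGC-1α+DFO replicate 2, 0.0561), Tab3 (GFP-PGC-1α+DFO replicate 1, 0.0918, and either GFP+DFO array, 0.0736) and Ikbkg (any array but GFP-PGC-1α+DFO replicate 1, 0.0833 to 0.1495). On spike-in scaling none of the 4 falls passed: Ikbkb was at -0.47 (adjusted p = 0.0582), Birc2 at -0.23, Tbk1 at -0.11 and Ikbkg at 0.16, with its sign turned. With the mean of probe sets the call of Ikbkb was also lost (adjusted p = 0.149). With GFP+DFO against GFP 6 of the 20 rose and 0 fell, where 11.8% and 12.5% of all genes were called.

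Of 12 receptor genes 3 rose and 1 fell with GFP-PGC-1α+DFO against GFP, where 13.5% of all genes were called higher and 18.3% lower. Tnfrsf1b, the TNF receptor TNFR2, read 779.8 and 635 with GFP-PGC-1α+DFO, 186 and 166 with GFP-PGC-1α, 279 and 254 with GFP+DFO and 200.5 and 182 with GFP. Its combined arrays stood above the other 6 (1.88 ± 0.14, adjusted p = 0.000574). Tnfrsf1a and Tlr3 rose by 0.67 ± 0.09 and 0.82 ± 0.15, and Il1r1, the interleukin-1 receptor, fell by 0.63 and was named after its values were seen. With GFP+DFO against GFP Il1r1 gave -1.53 ± 0.14 (adjusted p = 0.00194). GFP-PGC-1α+DFO against GFP+DFO gave 0.89 ± 0.14 (adjusted p = 0.0144), so the combined group lay above DFO alone. With GFP-PGC-1α+DFO against GFP the Tlr3 call was lost without GFP replicate 1 (adjusted p = 0.0655). In the same comparison that of Il1r1 was lost without any 1 array with DFO or with GFP alone (0.0538 to 0.0979) and on spike-in scaling (-0.07, adjusted p = 0.761).

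Of 12 measured genes listed as inhibitors 2 rose and 3 fell, again near the 13.5% and 18.3% of all genes. Tnip1, which encodes the A20 partner ABIN1, read 1866 and 1856 with GFP-PGC-1α+DFO, against 499 and 484 with GFP-PGC-1α, 657 and 641 with GFP+DFO and 473 and 481 with GFP. It rose by 1.96 ± 0.08 (adjusted p = 9.43e-05), and its interaction passed (1.48 ± 0.11, adjusted p = 0.0251). The interaction kept an adjusted p under 0.05 when GFP-PGC-1α+DFO replicate 1 was left out (0.0452), and without each of the other 7 arrays it lay at 0.0786 to 0.178. Zfp36, which destabilises cytokine mRNAs, rose by 1.13 ± 0.08 and was named after its values were seen, as was Sharpin. Sharpin is 1 of the 3 falls, but it encodes an activating component of the pathway and not an inhibitor. It fell by 0.87 and did not pass on spike-in scaling (-0.30, adjusted p = 0.187). Pdlim2, which targets nuclear RelA for degradation, fell by 1.75 ± 0.12 and Cops5 by 1.14 ± 0.08. With GFP+DFO against GFP these 2 genes gave -1.18 ± 0.12 and -0.79 ± 0.08.

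With GFP-PGC-1α+DFO against GFP 13.5% of all genes were called higher and 18.3% lower. Of 30 further NF-κB target genes, 15 rose and 1 fell there, with a median log2 change of 1.17. That count of 16 was 8 of 13 among genes above the median level. Cxcl1, a neutrophil chemokine, read 7552 and 7757 with GFP-PGC-1α+DFO, against 290.4 and 275 with GFP-PGC-1α, 298 and 311 with GFP+DFO and 242 and 238 with GFP. Its combined arrays stood far above the other 6 (4.99 ± 0.08, adjusted p = 3.72e-05). Nos2, inducible nitric oxide synthase, rose by 6.19 ± 0.45 and Il6, the cytokine interleukin-6, by 4.98 ± 0.51. Il6 read 547 and 616 with GFP-PGC-1α+DFO, against 7.67 to 32.1 on the other 6 arrays. Tnf, which was named after its values were seen, was dim and read 4.39 and 2.19 with GFP-PGC-1α+DFO against 15.4 and 15.8 with GFP (-2.33 ± 0.63, adjusted p = 0.0428), a call that 12 of 20 alternatives ended. Among them was the omission of any 1 array but those of GFP-PGC-1α (adjusted p = 0.0613 to 0.172).

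The single treatments moved fewer of the 30. Of all genes, GFP+DFO against GFP called 11.8% higher and 12.5% lower, and GFP-PGC-1α against GFP 4.96% and 4.77%. GFP+DFO against GFP called 7 higher and 3 lower, among them Nos2 (3.54), Ptgs2 (2.71), which encodes cyclooxygenase-2, and Lif (1.98), with Ptx3 (-1.33), Ccl7 (-0.76) and Sod2 (-0.64) lower. GFP-PGC-1α against GFP called 3 higher and 0 lower: Sod2, mitochondrial superoxide dismutase (1.64), Lcn2, an iron-siderophore binding protein (1.63), and Ptx3 (1.19). Ptgs2, Lif, Ptx3, Ccl7, Sod2 and Lcn2 were named after their values were seen. The call of Ccl7 was lost without GFP+DFO replicate 1 (adjusted p = 0.106) or replicate 2 (0.0679), and that of Ptx3 with GFP-PGC-1α without any 1 of the 4 arrays compared (0.0634 to 0.0854). GFP-PGC-1α+DFO against GFP+DFO called 15 higher and 0 lower, where 6.93% of all genes were called higher and 12% lower. The interaction called 0.231% of all genes higher and 0.324% lower. Of the 30 target genes 7 were higher in it and 0 lower: Saa3, Cxcl5, Cxcl2, Cxcl1, Ptgs2, Lcn2 and Ccl2. That count was lower with any 1 array left out, in fits that leave 1 array in a group. It was 1 on spike-in scaling, 1 with the mean of probe sets and 4 without _x_at and _s_at probe sets, and 11 with the floor, the pseudocount or the trend and robust options. Over all genes the interaction called 4 on spike-in scaling and 1467 with the trend and robust options, against 101 in the main fit. Alternatives other than array omissions called 3 to 1467 of all genes, so these counts move with those of the whole array.

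**Figure D4:**
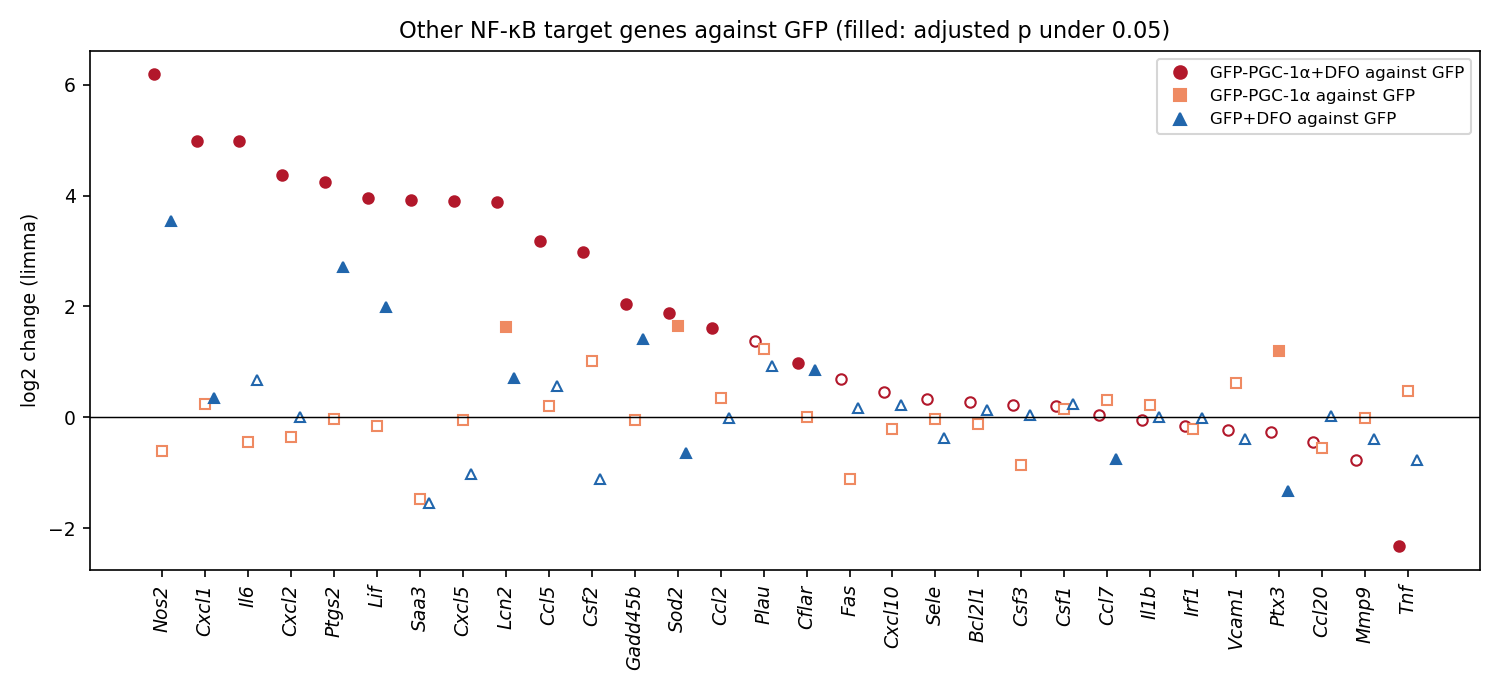
Log2 change against GFP (vertical axis) of the 30 further NF-κB target genes (horizontal axis) in 3 comparisons, filled where the limma adjusted p was under 0.05. For Cxcl1, Il6, Cxcl2, Saa3 and Cxcl5 the value with GFP-PGC-1α+DFO is between 3.90 and 4.99, while that of GFP-PGC-1α or GFP+DFO is at most 0.66.

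Markers of other cells and of the myotubes were read beside these results. Of all genes 13.5% were called higher and 18.3% lower with GFP-PGC-1α+DFO against GFP. With GFP+DFO against GFP the shares were 11.8% and 12.5%. Of 16 myotube genes 15 fell and 0 rose with GFP-PGC-1α+DFO against GFP, and 13 fell with GFP+DFO against GFP. Their summed intensity was 20035 to 21975 with GFP-PGC-1α+DFO, 73021 to 73581 with GFP-PGC-1α, 32560 to 32697 with GFP+DFO and 88519 to 91264 with GFP, so the NF-κB genes that rose with DFO did so in cultures whose myotube transcripts were lower. Of 8 measured macrophage and leukocyte markers 2 rose, Cd14 and Cd68, with GFP-PGC-1α+DFO and with GFP+DFO against GFP. Their summed intensity was 2460 to 3093 with GFP-PGC-1α+DFO, 2113 to 2186 with GFP-PGC-1α, 2559 to 2670 with GFP+DFO and 1900 to 2002 with GFP. The pan-leukocyte gene Ptprc read 13.6 to 34.8 and the T cell gene Cd3e 1 to 11.3 over the 8 arrays, whereas the macrophage genes Csf1r (1273 to 2039) and Adgre1 (398 to 527), named after their values were seen, were bright in all 4 groups. The summed intensity of 6 endothelial markers was 184 to 296 over the 8 arrays. Of 10 fibroblast and myoblast markers 1 rose and 4 fell with GFP-PGC-1α+DFO against GFP, and 2 rose and 3 fell with GFP+DFO against GFP. Among the falls with GFP-PGC-1α+DFO were the myoblast genes Myod1 (log2 change -4.72), Cdh15 (-3.54) and Myf5 (-3.06). The sums were 15602 to 15861 with GFP-PGC-1α+DFO, 15216 to 15362 with GFP-PGC-1α, 18940 to 19531 with GFP+DFO and 16843 to 17034 with GFP. Their part in the results was not tested.

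Of 13 targets of the hypoxia-inducible factor, which is stabilised when iron is chelated, 12 rose with GFP-PGC-1α+DFO and 13 with GFP+DFO against GFP, and 2 rose and 1 fell with GFP-PGC-1α. Of all genes 13.5% were called higher with GFP-PGC-1α+DFO, 11.8% with GFP+DFO and 4.96% with GFP-PGC-1α, where 4.77% were lower. Vegfa, the angiogenic factor, read 2763 and 2691 with GFP-PGC-1α+DFO, 1615 and 1619 with GFP-PGC-1α, 2431 and 2264 with GFP+DFO and 932 and 1019 with GFP.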

How the data were processed

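Each deposited table holds the linear intensities of the probe sets of 1 Affymetrix Mouse 430 2.0 array. The authors' probe summary, background correction and scaling are not given in the sources used here; 968 to 1082 values per array were exactly 1. They were log2-transformed as deposited, with no pseudocount or filter. Symbols came from the platform annotation table: of 45101 probe sets, 34945 had 1 symbol, 932 several, 9160 none, and 64 were controls. Of the 18193 genes each was represented by its brightest probe set.

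limma 3.58.1 in R 4.3.3 fitted 4 group means to the 8 arrays with 6 contrasts, leaving 4 residual degrees of freedom beside 1.30 of the prior. P-values are two-sided and were adjusted over all genes by Benjamini-Hochberg, with calls at 0.05. Every change and SE of a probe set that does not lead its gene comes from the same fit run on all probe sets. An exact permutation test of 2 arrays against 2 cannot go below p = 0.333, so the p-values rest on limma's pooled spread, and the number of arrays limits their precision. Plotting used Python 3.11.15 with matplotlib 3.10.9.

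The genes and the 12 lists were chosen with earlier results of these data known. Named were the 10 genes, up to 3 genes per other list with the largest change past the threshold with GFP-PGC-1α+DFO against GFP or in the interaction, 3 genes most like Ier3 and Nfkb2, and Ppargc1a, Vegfa and Car9. Other names are marked where they appear. Not matched were Chuk, Ripk1, Traf3 and Irak4 (kinases), Tnip3 (inhibitors), C3 and Bcl2a1b (targets) and Isg15 (interferon), and some other list entries are not reported here. Alternatives were quantile normalization, median centring, spike-in scaling (27 probe sets), averaged probe sets per gene, leaving out _x_at and _s_at probe sets, only genes above the median level, flooring at the 25th percentile, a pseudocount of 16, limma with trend and robust options, a 2-fold minimum, only the groups compared, the replicate block and each array left out. Spike-in scaling without the 3 dim Trpn probe sets, and counts of the target list under each alternative, were added after seeing the data.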

Additional observations from a re-analysis of the deposited data

Results flagged for a closer look

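The change with DFO differed between cells with and without the PGC-1α construct for 9 genes of the lists, tested as the limma interaction (log2 change with DFO in GFP-PGC-1α cells minus that in GFP cells). No member of the NF-κB gene set is among them. Cxcl1 gave 4.42 (adjusted p = 0.00186), and of 20 alternatives only the omission of GFP+DFO replicate 1 ended its call (adjusted p = 0.0582). The other chemokine genes were Cxcl5 at 4.97 (adjusted p = 0.0443), Cxcl2 at 4.72 (adjusted p = 0.05, just under the threshold before rounding) and Ccl2 at 1.27 (adjusted p = 0.05, likewise). Saa3, an acute-phase gene, gave 6.95 (adjusted p = 0.05, likewise), Ptgs2 1.57 (adjusted p = 0.0406), Lcn2 1.54 (adjusted p = 0.0251) and Tnip1 1.48 (adjusted p = 0.0251). Cdh15, which encodes the muscle cadherin, gave -1.23 (adjusted p = 0.047). For each of these 8 genes 11 to 14 of its alternatives ended the call, array omissions among them. Saa3 read 421 and 370.0 with GFP-PGC-1α+DFO, against 5.40 and 16.3 with GFP-PGC-1α, 6.93 and 11.5 with GFP+DFO and 31.7 and 21.6 with GFP, so its interaction draws on values near the bottom of the scale.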

How the results depend on the processing

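Of 1107 values of single genes of the set under alternatives, 1042 kept their side of the threshold, 32 passed newly, 33 no longer passed and 0 turned sign after a call. The count of 5 called with GFP-PGC-1α+DFO against GFP ranged over 4 to 6, and 5 to 6 with 1 array left out. GFP-PGC-1α against GFP went to 0 with the mean of probe sets (940 over all genes) and 0 with only the groups compared (0 over all genes). GFP+DFO against GFP went to 3 with the 2-fold minimum (1672 over all genes), and its count depended on single arrays. GFP-PGC-1α+DFO against GFP+DFO gave 3 in the main setting, where 3446 of all genes passed. It gave 7 on spike-in scaling (3410 over all genes), 7 without Trpn (4044) and 1 with the mean of probe sets (2213). With the floor it gave 5 (4104) and with trend and robust options 5 (4992), and it also depended on single arrays. Against GFP-PGC-1α the count of 6 ranged over 4 to 7, and 4 to 6 with 1 array left out. The interaction gave 3 among genes above the median level (1316 over all genes), 3 with trend and robust options (1467 over all genes) and 0 to 0 with 1 array left out. The causes were not tested.

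Over all genes, calls with GFP-PGC-1α+DFO against GFP numbered 5786 (2501 to 7308 under alternatives), with GFP-PGC-1α against GFP 1770 (0 to 3746), with GFP+DFO against GFP 4409 (1672 to 5623), against GFP+DFO 3446 (861 to 4992), against GFP-PGC-1α 4662 (1866 to 5912) and in the interaction 101 (0 to 1467). On spike-in scaling the median of all genes with GFP-PGC-1α+DFO against GFP was 0.56, against -0.01 as deposited, and 83.9% of calls were higher, against 42.4%. Those shares were 85.6% against 51.0% with GFP-PGC-1α against GFP, 89.3% against 36.6% with GFP-PGC-1α+DFO against GFP+DFO and 76.0% against 44.6% with GFP-PGC-1α+DFO against GFP-PGC-1α. Off the set, Stat2 with GFP-PGC-1α+DFO against GFP turned to 0.21 on spike-in scaling and 0.26 without Trpn, and Ikbkg to 0.16 and 0.21. The mean of probe sets of Ppargc1a gave -0.11 there and -0.84 with GFP+DFO against GFP.

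The replicate numbers were not taken as pairs, since deviations of equal numbers correlated at -0.11 to 0.22 between groups. With the replicate block the count with GFP-PGC-1α+DFO against GFP was 5, as without it. The count of further target genes called in the interaction was 1, against 7 without the block. The calls over all genes with the block are not reported here.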

Other observations

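Of 16 measured interferon-response genes, which share inducers with NF-κB targets, 0 were called higher and 2 lower by limma with GFP-PGC-1α+DFO against GFP, where 13.5% and 18.3% of all genes were called. Ifit2 read 24.5 and 18.1 with GFP-PGC-1α+DFO and 35.6 and 35.9 with GFP+DFO, against 94.9 and 82.4 with GFP-PGC-1α and 111 and 103 with GFP. Its log2 change with GFP-PGC-1α+DFO against GFP was -2.34 ± 0.17 (limma adjusted p = 0.000511), and with GFP+DFO against GFP -1.58 ± 0.17 (adjusted p = 0.00281). Stat2 gave -0.35 ± 0.09 with GFP-PGC-1α+DFO against GFP (adjusted p = 0.0346) and -0.66 ± 0.09 with GFP-PGC-1α (adjusted p = 0.0156). The call of Stat2 with GFP-PGC-1α+DFO was lost with any 1 of the 8 arrays left out (adjusted p = 0.0595 to 0.127), and that with GFP-PGC-1α without any 1 of the 4 arrays compared (0.0617 to 0.0897).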
